A study of Homo sapiens with 8 samples.

Results

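Nonsense-mediated decay (NMD) is the pathway that recognises an mRNA on which translation ends too early and sends it to degradation. The 9 genes described here encode its core machinery: the UPF proteins UPF1, UPF2, UPF3A and UPF3B, the kinase SMG1 with its partners SMG8 and SMG9, and the decay factors SMG5 and SMG6. They were taken by name, with no threshold on a measured value but with earlier results of these data known, and all 9 were found among the 61544 entries of each deposited count table. All 9 also passed the filter on low counts, which left 16499 genes to test.

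RNA was sequenced from 2 human acute myeloid leukemia cell lines, HEL, a line with erythroid and megakaryocytic features, and MOLM-13, a monocytic line. Each line carried a control shRNA or one that targets DDX6, a DEAD-box RNA helicase that P-bodies need to form. Both shRNAs were delivered by lentivirus and the cells were selected with puromycin, so the 4 groups share the virus, the selection and the growth medium. Each group had 2 libraries, 8 in all. The labels give HEL and MOLM-13 control cells as wild type and the others as DDX6 knockdown, and they do not say whether replicates were separate cultures, and every p-value therefore rests on a spread that may be technical. The time after transduction is not given in the sample labels. The HEL knockdown columns carry a hairpin number in their names (shRNA2) and the MOLM-13 columns carry none, so whether both lines had the same hairpin is not known, and for a difference between lines the line and the hairpin cannot be told apart.

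In NMD, UPF1 is an RNA helicase that meets the release factors at a terminating ribosome. UPF2 bridges UPF1 to UPF3B, or to its paralog UPF3A, and UPF3B contacts the exon junction complex that splicing leaves on mRNA. SMG1, a kinase of the PIKK family held in check by SMG8 and SMG9, phosphorylates UPF1. Phosphorylated UPF1 then attracts SMG6, an endonuclease that cuts the mRNA near the stop codon, and SMG5, an adaptor to decapping and deadenylation. NMD is also known to act on some normal transcripts, among them host RNAs of small nucleolar RNAs and stress genes such as ATF4, and mRNAs of several NMD factors are known NMD targets themselves.

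The genes lie on 7 chromosomes (GENCODE release 29, GRCh38). UPF1 is at chr19:18831938-18868236 on the plus strand and SMG9 at chr19:43727992-43754990 on the minus strand. UPF2 is at chr10:11920022-12043170 (minus), UPF3A at chr13:114281584-114305817 (plus) and UPF3B at chrX:119805311-119852998 (minus). SMG1 is at chr16:18804853-18926454 (minus), SMG5 at chr1:156249224-156282825 (minus), SMG6 at chr17:2059839-2303771 (minus) and SMG8 at chr17:59209400-59215247 (plus). The 3′ UTR of their representative transcripts ran from 237 to 4716 bases, with a median of 1363 against 1052 over 13217 tested protein-coding genes. At least 1 transcript annotated as an NMD target is listed for SMG1, SMG8 and SMG9, which is 33.3% of the 9 against 42.5% of tested protein-coding genes.

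Promoters of 5 of the genes are shown because UPF1 and SMG9 fell in both lines and because UPF3A, UPF3B and SMG5 share a sequence element. RefSeq (GRCh38.p14) promoters were matched for 8 of the 9 genes, SMG8 being the other. Each runs over 300 bases in the direction of the gene, at chr19:18831709-18832008 (plus strand) for UPF1, chr19:43754913-43755212 (minus) for SMG9, chr13:114281351-114281650 (plus) for UPF3A, chrX:119852914-119853213 (minus) for UPF3B and chr1:156282776-156283075 (minus) for SMG5. Capitals mark the letters TCGCGAGA, on either strand, and in SMG9 the NRF1 motif.
UPF1: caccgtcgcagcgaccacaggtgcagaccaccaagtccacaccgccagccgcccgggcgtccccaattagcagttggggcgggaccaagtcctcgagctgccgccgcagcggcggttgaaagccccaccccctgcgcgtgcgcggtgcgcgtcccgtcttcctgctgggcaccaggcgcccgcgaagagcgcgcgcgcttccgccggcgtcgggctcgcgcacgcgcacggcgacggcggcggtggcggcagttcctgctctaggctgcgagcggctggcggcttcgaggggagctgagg
SMG9: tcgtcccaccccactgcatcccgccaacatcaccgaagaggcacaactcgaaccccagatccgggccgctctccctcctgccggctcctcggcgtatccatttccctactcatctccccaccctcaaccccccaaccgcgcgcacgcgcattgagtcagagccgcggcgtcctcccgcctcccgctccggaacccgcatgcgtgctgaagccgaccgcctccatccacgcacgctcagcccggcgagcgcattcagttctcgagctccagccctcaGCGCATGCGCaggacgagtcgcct
UPF3A: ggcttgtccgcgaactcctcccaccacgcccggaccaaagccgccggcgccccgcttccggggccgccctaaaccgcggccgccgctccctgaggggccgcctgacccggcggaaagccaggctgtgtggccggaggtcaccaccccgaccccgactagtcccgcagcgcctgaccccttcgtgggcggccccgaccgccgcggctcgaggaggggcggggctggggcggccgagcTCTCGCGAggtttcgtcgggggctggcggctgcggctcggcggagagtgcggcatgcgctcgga
UPF3B: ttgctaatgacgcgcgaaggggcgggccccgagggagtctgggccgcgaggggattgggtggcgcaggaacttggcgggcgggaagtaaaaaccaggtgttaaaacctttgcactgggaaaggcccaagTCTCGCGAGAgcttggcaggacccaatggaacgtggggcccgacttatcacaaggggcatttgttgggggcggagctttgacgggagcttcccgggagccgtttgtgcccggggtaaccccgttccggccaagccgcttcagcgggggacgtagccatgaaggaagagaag
SMG5: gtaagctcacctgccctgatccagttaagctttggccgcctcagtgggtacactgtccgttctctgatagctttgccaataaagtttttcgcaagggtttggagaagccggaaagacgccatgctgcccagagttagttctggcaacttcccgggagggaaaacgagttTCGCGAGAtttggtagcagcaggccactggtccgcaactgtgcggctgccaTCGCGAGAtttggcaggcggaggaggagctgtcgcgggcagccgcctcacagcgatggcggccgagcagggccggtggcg

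The TCGCGAGA element was found in 3 of the 8 promoters, once in UPF3A, once on each strand of 1 palindromic stretch in UPF3B and at 2 places in SMG5. It is in 404 of 35116 RefSeq promoters of the same length (1.15%). The NRF1 motif was found in 1 of 8, SMG9, and in 1.24% of all promoters. GC boxes (GGGCGG) were found in 6 of 8 (45.0% of all) and CCAAT in 4 of 8 (34.6% of all). The motifs were picked after these promoters had been read, and a match describes letters, not binding. Of the genes with the element, UPF3A fell after DDX6 knockdown in HEL and UPF3B and SMG5 in MOLM-13. UPF1, UPF2 and SMG9, without a match in their windows, fell in at least 1 line. SMG1 and SMG6, also without a match, were called in neither line by the joint fit.

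The libraries held 10719829 to 12093544 counts in HEL and 7888318 to 8174432 in MOLM-13. DDX6 itself, the targeted gene, stood at 177 and 180 CPM in HEL control and at 96.8 and 94.8 CPM in HEL DDX6 shRNA (log2 fold change -0.90 ± 0.07 SE, edgeR adjusted p = 3.54e-14). In MOLM-13 it stood at 126 and 122 CPM in control and at 67.9 and 74.2 CPM after knockdown (-0.80 ± 0.08, edgeR adjusted p = 2.56e-11). CPM here is the usual depth-scaled count after TMM scaling, unless stated otherwise. Some listed markers separated the lines clearly (CPM unscaled). ITGA2B and GATA1 averaged 1160 and 250 CPM in HEL control, against 8.23 and 0.441 in MOLM-13 control. FLT3 and HOXA9 averaged 281 and 128 CPM in MOLM-13 control, against 0.254 and 0.466 in HEL control. Other MOLM-13 markers were present in both lines. SPI1, CD33 and MEIS1 averaged 306, 151 and 51.3 CPM in MOLM-13 control, and 93.6, 132 and 40.8 CPM in HEL control. HBG1, a fetal globin listed as a HEL marker, averaged only 1.88 CPM there. Among markers of other cell types, CD3E, MS4A1 and EPCAM averaged at most 0.939 CPM in every group. PECAM1, an endothelial and myeloid adhesion molecule, averaged 219 CPM in HEL control and 262 after knockdown, and 257 CPM in MOLM-13 control and 504 after knockdown (unscaled). The part of PECAM1-positive or other cells in the results below was not tested.

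After DDX6 knockdown no rise of an NMD factor passed the test in either line, and the changes that passed it were small losses. SMG6 in MOLM-13 was higher without passing (log2 fold change 0.32, edgeR adjusted p = 0.0982). In HEL, UPF1, UPF3A and SMG9 fell, to 85.1%, 84.5% and 82.7% of control. In MOLM-13, UPF1, UPF2, UPF3B, SMG5 and SMG9 fell, UPF3B and SMG9 the furthest, by 0.46 and 0.53 on the log2 scale. UPF1 and SMG9 fell in both lines. In bulk RNA, fewer cells of one kind and less RNA per cell cannot be told apart.

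By edgeR's quasi-likelihood test at an adjusted p under 0.05, 3 of 9 genes were lower and 0 higher in HEL, where 14.1% of the 16499 tested genes were lower, 20.7% higher and 34.8% either. In MOLM-13, 5 of 9 were lower and 0 higher, where 14.3% of tested genes were lower, 18.1% higher and 32.4% either. At an unadjusted p under 0.05, 0 genes were higher in HEL and 1, SMG6, in MOLM-13, and DESeq2 called 0 higher in each line. DESeq2 called 3 lower in HEL and 2 lower, UPF3B and SMG9, in MOLM-13, where UPF1, UPF2 and SMG5 had DESeq2 adjusted p of 0.0798, 0.0677 and 0.0884. With MOLM-13 fitted alone these genes also lost their calls (edgeR adjusted p = 0.0579, 0.0588 and 0.0562). The median log2 fold change of the 9 was -0.06 in HEL, against 0.03 over all tested genes, and -0.21 in MOLM-13, against 0.00. Summed over the 9 genes, the level was 926.7 and 940 CPM in HEL control and 892.4 and 886.7 after knockdown, and 803.6 and 812.3 CPM in MOLM-13 control and 706.6 and 702.7 after knockdown. In HEL the libraries of control and knockdown did not overlap for 5 genes that were lower (UPF1, UPF3A, UPF3B, SMG1 and SMG9) and 1 that was higher (SMG8), where 29.9% of tested genes were lower and 37.5% higher by that count. In MOLM-13 this held for 7 that were lower and for SMG6, which was higher, against 29.2% and 31% of tested genes. The summed libraries did not overlap between control and knockdown in either line.

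**Figure D1:**
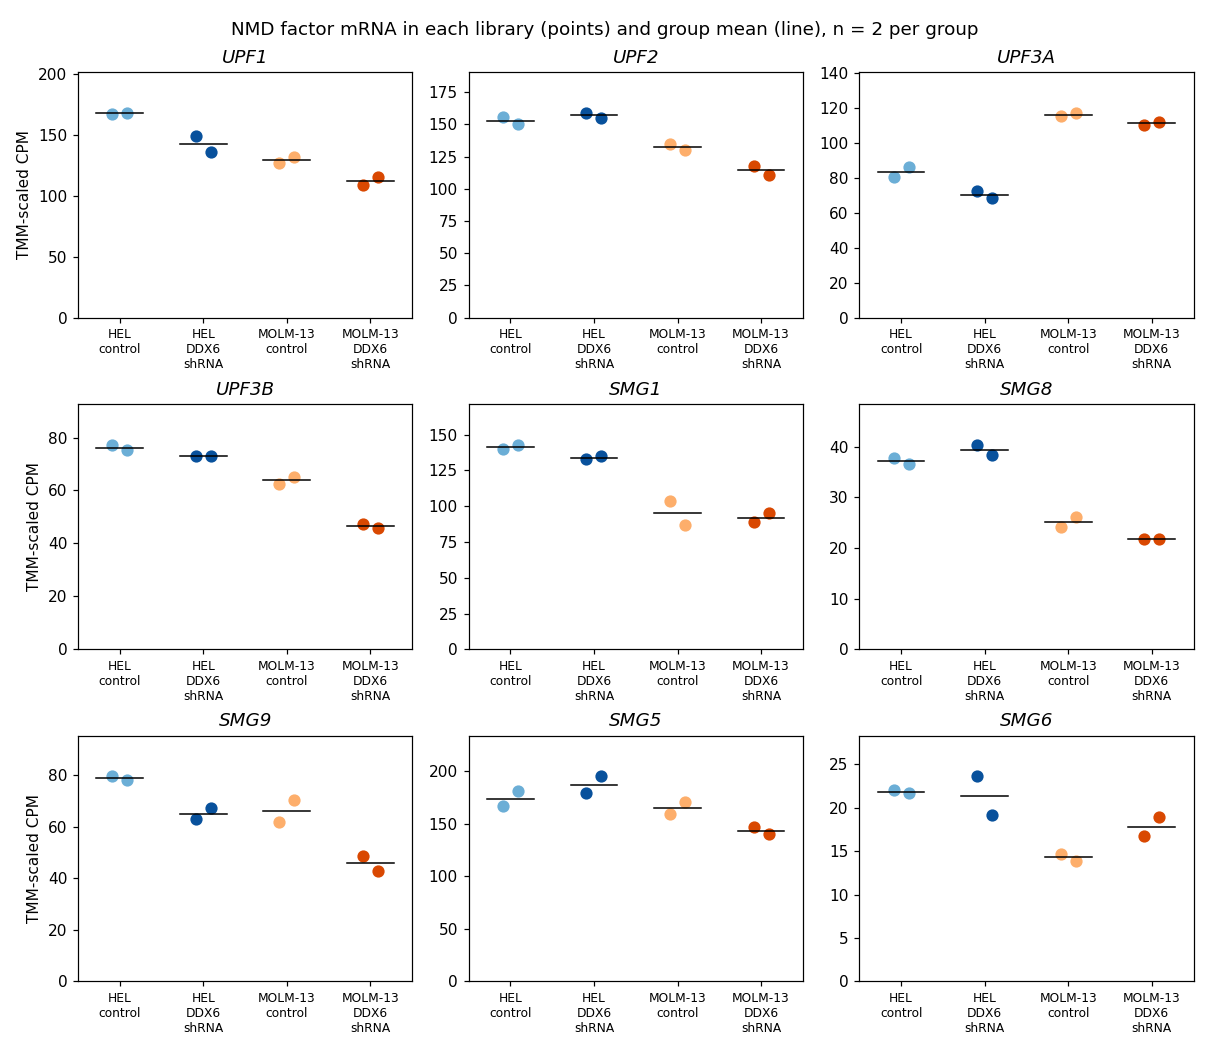
Level of each NMD factor in every library, in TMM-scaled CPM on a linear axis starting at 0. Points are libraries, 2 per group, and lines are group means. UPF1 and SMG9 are lower after DDX6 knockdown in both lines, while UPF3B falls from about 63.9 to 46.5 CPM in MOLM-13 and stays near 76.2 and 73.1 CPM in HEL.

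UPF1, the helicase at the centre of the pathway, stood at 167 and 168 CPM in the HEL control libraries and at 149 and 136 CPM after knockdown. Its MOLM-13 levels were 127 and 132 CPM in control and 109 and 115 CPM after knockdown. Both knockdown libraries lay below both controls in each line. The log2 fold change was -0.23 ± 0.07 (edgeR adjusted p = 0.00656) in HEL and -0.21 ± 0.08 (edgeR adjusted p = 0.0276) in MOLM-13. Here and below, a fit that left out a library of the other line kept both replicates of each compared group. Such fits test a line's call less, and tallies out of 8 include them. UPF1 in MOLM-13 stayed at -0.21 without HEL control replicate 1. The HEL call was lost without control replicate 1 (-0.24, edgeR adjusted p = 0.0571), control replicate 2 (-0.23, 0.0749) or DDX6 shRNA replicate 2 (-0.17, 0.178). In MOLM-13 the call was lost in 5 of 8 fits that each left out 1 library, with edgeR adjusted p from 0.0505 without HEL control replicate 1 or 2, through 0.0557 and 0.0561 without MOLM-13 control replicate 2 or DDX6 shRNA replicate 2, to 0.215 without MOLM-13 DDX6 shRNA replicate 1.

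UPF2, the bridging protein, stood at 156 and 150 CPM in HEL control and at 159 and 155 CPM after knockdown, where the libraries overlapped. In MOLM-13 it fell from 135 and 130 CPM to 118 and 111 CPM, with no overlap. The log2 fold change was 0.04 ± 0.07 (95% interval -0.10 to 0.17, edgeR adjusted p = 0.712) in HEL and -0.21 ± 0.07 (edgeR adjusted p = 0.0258) in MOLM-13. The MOLM-13 call was lost without control replicate 1 (-0.18, edgeR adjusted p = 0.0509) or DDX6 shRNA replicate 2 (-0.16, 0.216).

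UPF3A, the weaker of the UPF3 paralogs in NMD, stood at 80.3 and 86 CPM in HEL control and at 72.2 and 68.2 CPM after knockdown. Its MOLM-13 levels were 115 and 117 CPM in control and 110 and 112 CPM after knockdown. The knockdown libraries lay below the controls in both lines, and the change passed the test in HEL (-0.24 ± 0.08, edgeR adjusted p = 0.01) but not in MOLM-13 (-0.06 ± 0.08, 95% interval -0.22 to 0.09, edgeR adjusted p = 0.572). The HEL call was lost without control replicate 2 (-0.19, edgeR adjusted p = 0.169) or DDX6 shRNA replicate 2 (-0.20, 0.139).

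UPF3B, the X-linked paralog that contacts the exon junction complex, passed the test in MOLM-13 and not in HEL. Levels of UPF3B were 77.3 and 75.1 CPM in HEL control and 73.1 in both HEL knockdown libraries (-0.06 ± 0.08, 95% interval -0.21 to 0.09, edgeR adjusted p = 0.59). In MOLM-13 it went from 62.6 and 65.2 CPM to 47.2 and 45.7 CPM (-0.46 ± 0.09, edgeR adjusted p = 7.28e-05), with a wide gap between the groups. That MOLM-13 call held in all 16 alternative fits, including all 8 that left out 1 library.

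SMG1, the kinase that phosphorylates UPF1, did not pass the test of the joint fit in either line. It stood at 140 and 143 CPM in HEL control and 133 and 135 CPM after knockdown (-0.08 ± 0.07, 95% interval -0.23 to 0.06, edgeR adjusted p = 0.399), though with HEL fitted alone SMG1 was called lower (-0.12, edgeR adjusted p = 0.0381). In MOLM-13 the controls, at 104 and 86.7 CPM, spanned the knockdown libraries at 88.7 and 95.1 CPM (-0.05 ± 0.08, 95% interval -0.22 to 0.12, edgeR adjusted p = 0.692). SMG1 has near-identical pseudogenes, and reads may be split between them. Their counts came to 7.71% to 10.2% of SMG1's in HEL and 9.65% to 15.8% in MOLM-13. With those counts added, the log2 fold change of SMG1 was -0.11 (edgeR adjusted p = 0.262) in HEL and -0.11 (0.33) in MOLM-13. Of 7 pseudogenes, 4 were tested, and SMG1P7 was the 1 that fell in each line (-1.21 ± 0.26, edgeR adjusted p = 0.000208, and -0.73 ± 0.23, 0.0138).

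SMG9, a GTPase-like regulator of SMG1, had the lowest fold change estimate of the 9 genes in each line. Levels of SMG9 were 79.6 and 78.1 CPM in HEL control and 63.1 and 67.3 CPM after knockdown. In MOLM-13 they were 62.1 and 70.3 CPM in control and 48.8 and 42.9 CPM after knockdown. Both knockdown groups lay wholly below their controls, by -0.27 ± 0.08 in HEL (edgeR adjusted p = 0.00599) and -0.53 ± 0.09 in MOLM-13 (edgeR adjusted p = 1.54e-05). The MOLM-13 call held in all 16 alternative fits, and the HEL call was lost without control replicate 1 (-0.26, edgeR adjusted p = 0.074) or DDX6 shRNA replicate 1 (-0.23, 0.117).

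SMG8, which sits with SMG9 on the kinase, did not pass the test in either line. It stood at 37.7 and 36.6 CPM in HEL control and at 40.4 and 38.4 CPM after knockdown (0.08 ± 0.09, 95% interval -0.10 to 0.27, edgeR adjusted p = 0.514). In MOLM-13 it stood at 24.1 and 26.2 CPM in control and at 21.8 CPM in both knockdown libraries (-0.21 ± 0.12, 95% interval -0.45 to 0.04, edgeR adjusted p = 0.209). An overlapping gene on the same strand shares 11.247% of SMG8's exonic bases and had 0 counts in all 8 libraries.

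SMG5, the adaptor to decapping and deadenylation, moved apart in the lines. It stood at 167 and 181 CPM in HEL control and at 179 and 195 CPM after knockdown, where the groups overlapped (0.10 ± 0.07, 95% interval -0.04 to 0.24, edgeR adjusted p = 0.262). In MOLM-13 it stood at 159 and 171 CPM in control and at 147 and 140 CPM after knockdown (-0.20 ± 0.07, edgeR adjusted p = 0.0293). The MOLM-13 call of SMG5 was lost in 5 of 8 fits that left out 1 library, with edgeR adjusted p of 0.0504 and 0.0506 without HEL control replicate 1 or 2, 0.075 and 0.221 when either MOLM-13 knockdown library was left out, and 0.133 without MOLM-13 control replicate 2.

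SMG6, the endonuclease, was the least abundant of the 9 and the 1 gene whose MOLM-13 libraries were higher after knockdown. Its levels were 22 and 21.7 CPM in HEL control and 23.6 and 19.2 CPM after knockdown, with the groups overlapping (-0.03 ± 0.11, edgeR adjusted p = 0.908). In MOLM-13 they were 14.7 and 13.9 CPM in control and 16.7 and 18.9 CPM after knockdown (0.32 ± 0.15, 95% interval 0.02 to 0.62, edgeR adjusted p = 0.0982), which did not pass the test after adjustment. SMG6 rests on 110 to 142 counts per MOLM-13 library. SMG6 shares 22.92% of its exonic bases with HIC1, on the opposite strand, and the strand setting of the counting is not given in the sources used here. HIC1 held 38 and 34 counts in HEL control, 76 and 81 in HEL knockdown and 2 in each MOLM-13 library.

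**Figure D2:**
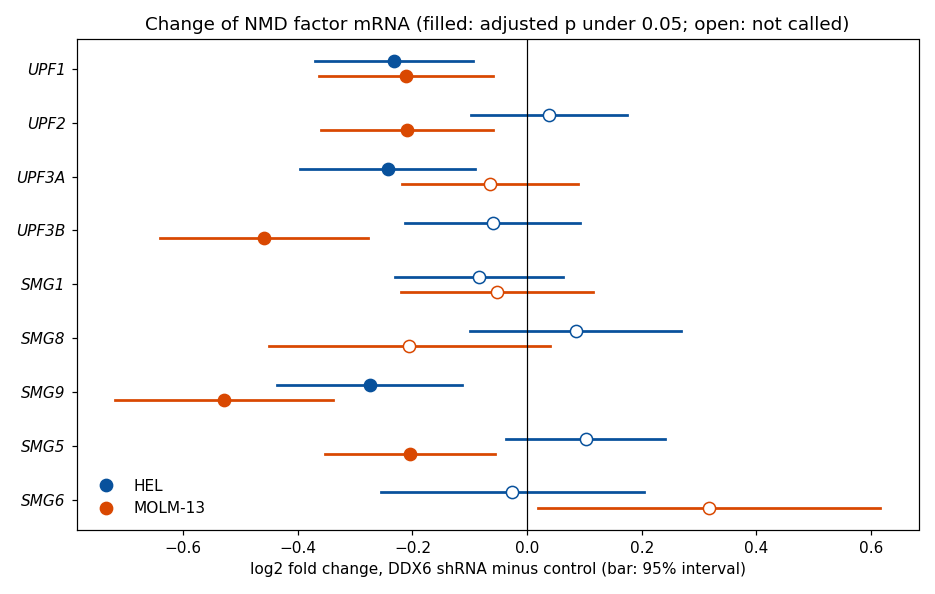
Log2 fold change of each NMD factor, DDX6 shRNA minus control, in HEL (blue) and MOLM-13 (orange). Bars are 95% intervals computed from edgeR's fold change and F statistic. Filled points have an adjusted p under 0.05. The 3 called genes in HEL and 5 in MOLM-13 all lie left of 0, and SMG6 in MOLM-13 is the open point furthest to the right.

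The size of the response differed between the lines for UPF3B and SMG5. In the interaction test of the joint fit, the change in MOLM-13 less that in HEL was -0.40 ± 0.12 for UPF3B (edgeR adjusted p = 0.0151) and -0.31 ± 0.10 for SMG5 (edgeR adjusted p = 0.0311). Thus 2 of 9 genes were called lower and 0 higher, where 7.59% of tested genes were lower, 7.53% higher and 15.1% either. No gene was higher at an unadjusted p under 0.05 either, 4 were lower at that level, and DESeq2 called 0 in each direction. For UPF2 (-0.25 ± 0.10, edgeR adjusted p = 0.0895), SMG9 (-0.26 ± 0.12, 0.172), SMG8 (-0.29 ± 0.15, 0.215), SMG6 (0.34 ± 0.19, 0.235) and UPF3A (0.18 ± 0.11, 0.292) the difference did not pass. For UPF1 (0.02 ± 0.10, 95% interval -0.18 to 0.23) and SMG1 (0.03 ± 0.11, 95% interval -0.19 to 0.25) it also did not pass. The UPF3B difference was lost in 5 of 8 fits that each left out 1 library, namely HEL control replicate 2 or any 1 of the 4 knockdown libraries (edgeR adjusted p from 0.0537 to 0.117). The SMG5 difference was lost in 6 of 8, all but those without HEL DDX6 shRNA replicate 1 or MOLM-13 control replicate 1 (edgeR adjusted p from 0.0553 to 0.231).

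Ratios of counts between partner genes within a library do not depend on scaling. The pairs were chosen after the values had been seen, so their ratios are given without a test. The UPF3A to UPF3B ratio was 1.04 and 1.14 in HEL control and 0.987 and 0.933 after knockdown. In MOLM-13 it was 1.84 and 1.79 in control and 2.33 and 2.44 after knockdown, so the knockdown libraries lay below control in HEL and above control in MOLM-13, with no overlap. The SMG8 to SMG9 ratio was 0.474 and 0.469 in HEL control and 0.64 and 0.571 after knockdown, and 0.388 and 0.373 in MOLM-13 control and 0.447 and 0.508 after knockdown, higher after knockdown in both lines. The SMG6 to SMG5 ratio was 0.0924 and 0.0809 in MOLM-13 control and 0.114 and 0.135 after knockdown, while in HEL it overlapped, at 0.131 and 0.12 in control and 0.132 and 0.0983 after knockdown. The UPF2 to UPF1 ratio was 0.933 and 0.891 in HEL control and 1.07 and 1.14 after knockdown, and overlapped in MOLM-13, at 1.06 and 0.99 against 1.09 and 0.969.

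**Figure D3:**
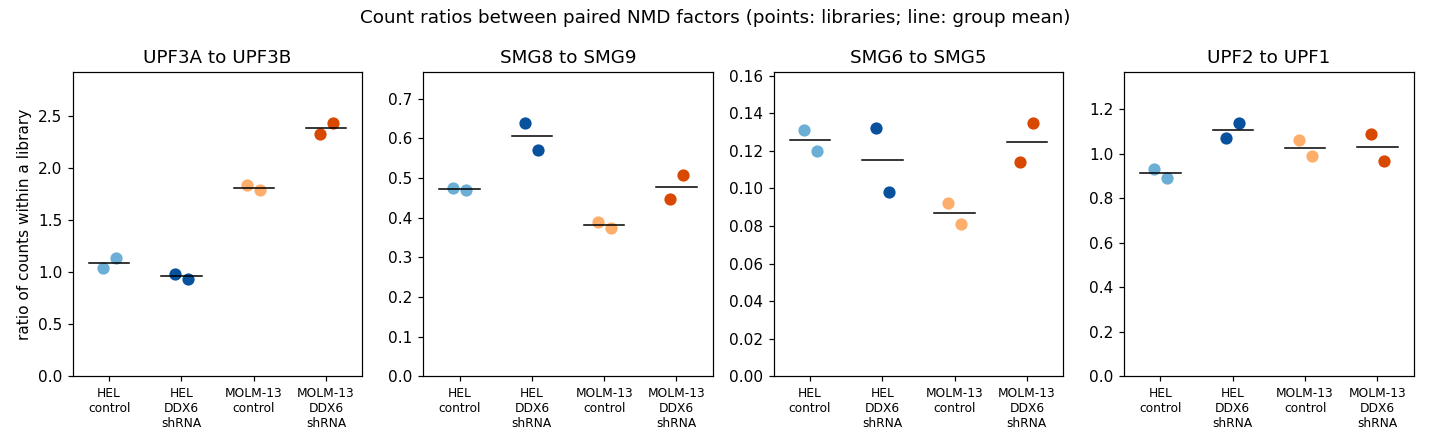
Ratio of counts between paired NMD factors in each library (points, 2 per group) and the group mean (line), on linear axes from 0. The UPF3A to UPF3B ratio averages 1.09 and 0.96 in HEL control and knockdown and 1.82 and 2.39 in MOLM-13 control and knockdown.

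The lines also differed before knockdown. Between the control libraries, 7 of the 9 genes were higher in HEL, where 40.8% of tested genes were higher, 40.4% lower and 81.2% either. By libraries that do not overlap, 7 genes were higher and 1 lower in HEL, against 45.2% and 44.6% of tested genes. In the joint fit the largest differences were in SMG6 (0.61 ± 0.13, edgeR adjusted p = 5.66e-05), SMG1 (0.58 ± 0.08, 6.17e-09) and SMG8 (0.56 ± 0.10, 4.76e-06). UPF1 was higher by 0.37 ± 0.07, UPF3B by 0.25 ± 0.08, SMG9 by 0.25 ± 0.08 and UPF2 by 0.20 ± 0.07 (edgeR adjusted p from 8.51e-06 to 0.00832). UPF3A alone was lower in HEL (-0.48 ± 0.07, edgeR adjusted p = 1.77e-07), and SMG5 did not pass (0.08 ± 0.07, edgeR adjusted p = 0.305). The lines came in separate tables with different depth, so the line and any batch of its table cannot be told apart. Removing the trend of counts with GC content reversed UPF2 (-0.27, edgeR adjusted p = 4.87e-05) and UPF3B (-0.13, 0.0848) in this comparison and put SMG5 past the test, higher in HEL (0.43, 2.39e-09). It also moved UPF1 to 0.80, SMG6 to 0.90, SMG9 to 0.54 and SMG1 to 0.27, so the sizes and their order depend on this step. Upper-quartile scaling, which shifted the median of all genes by -0.12, left 4 genes higher. UPF2 also lost its call without HEL control replicate 1 (0.17, edgeR adjusted p = 0.0875), and SMG5 passed without MOLM-13 control replicate 2.

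Divided by the length of all annotated exons, SMG5 had the highest level and SMG6 the lowest in all 4 groups. In HEL control the order of levels was SMG5 (32.9 CPM per kb), UPF2 (25.8), UPF3B (24.7), UPF1 (19.5), UPF3A (14.4), SMG9 (9.95), SMG8 (9.91), SMG1 (5.46) and SMG6 (2.07), and only the SMG9 and SMG8 libraries overlapped their neighbour. In MOLM-13 control it was SMG5 (31.1 CPM per kb), UPF2 (22.5), UPF3B (20.7), UPF3A (20.1), UPF1 (15), SMG9 (8.35), SMG8 (6.7), SMG1 (3.67) and SMG6 (1.35), with no overlap of neighbours. After knockdown in MOLM-13, UPF3A at 19.2 CPM per kb stood above UPF3B at 15.1 and overlapped UPF2 at 19.4. The order depends on the length used: per kb of the representative transcript, UPF3A led in MOLM-13 control, at 48.6 against 36.2 for SMG5.

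By the Euclidean distance between centred log2 CPM over the 8 libraries, the genes whose patterns lay nearest to UPF1 were MCM9 (0.115), PIGF (0.126) and ZBED6CL (0.142). Those nearest to SMG9 were MED20 (0.17), DDX55 (0.19) and TRMT112 (0.191). These 2 genes were taken because they were called in both lines.

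The other genes of the pathway were counted from lists of named genes, to be read against the 20.7% higher and 14.1% lower of all tested genes in HEL and the 18.1% higher and 14.3% lower in MOLM-13. Among 8 other NMD and release factors, 1 was higher and 2 lower in HEL, and 3 were higher and 1 lower in MOLM-13 (2 and 1 by DESeq2). ETF1, the release factor that reads stop codons, rose in both lines, from 216 to 260 CPM in HEL (0.27 ± 0.06, edgeR adjusted p = 0.000807) and from 191 to 227 CPM in MOLM-13 (0.25 ± 0.07, 0.00334). Its partner GTPase GSPT1 rose in MOLM-13 from 211 to 256 CPM (0.28 ± 0.07, edgeR adjusted p = 0.00106), and the close homolog GSPT2 from 10.5 to 14.4 CPM (0.46 ± 0.17, 0.0289), reads of which may be shared with GSPT1. In HEL, ICE1 fell from 76.5 to 58.8 CPM (-0.38 ± 0.08, edgeR adjusted p = 0.000314) and PNRC2, which links UPF1 to decapping, from 332 to 292 CPM (-0.19 ± 0.06, 0.0207). In MOLM-13 the RNA helicase DHX34 was lower, at 36.5 CPM in control and 27 CPM after knockdown (-0.43 ± 0.11, edgeR adjusted p = 0.00254). Calls of GSPT2 and DHX34 held in 6 of 8 fits that left out 1 library and that of PNRC2 in 5 of 8. All fits that lost these calls left out a library of the line concerned.

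Of 10 exon junction complex genes, 3 were higher and 1 lower in HEL, and 0 were higher and 5 lower in MOLM-13, against 20.7% higher and 14.1% lower, and 18.1% and 14.3%, of all tested genes. The 5 that fell in MOLM-13 include the core subunits MAGOH, from 68.4 to 44.6 CPM (-0.62 ± 0.09, edgeR adjusted p = 9.04e-07), and MAGOHB, its near-identical copy, from 40.3 to 26.7 CPM (-0.59 ± 0.11, 2.77e-05), between which reads may be split. RNPS1, a splicing-linked member, fell by 0.22 on the log2 scale (edgeR adjusted p = 0.0126) and PYM1, which takes the complex apart, by 0.24 (0.0322). RBM8A was also among the 5 lower in MOLM-13 (-0.25 ± 0.09, edgeR adjusted p = 0.0329), though it was called higher in HEL. Its MOLM-13 call held in 4 of 8 fits that left out 1 library. The RNPS1 call was lost without MOLM-13 control replicate 2 (-0.14) or DDX6 shRNA replicate 1 (-0.17). That of PYM1 held in 6 of 15 alternatives and was lost in 5 of 8 fits that left out 1 library. The fit without the filter on low counts and DESeq2 were also among those that lost it. At an unadjusted p under 0.05, 0 were higher and 6 lower in MOLM-13, and DESeq2 called 0 higher and 3 lower. In HEL, SAP18 (0.20 ± 0.06, edgeR adjusted p = 0.0095), ACIN1 (0.16 ± 0.06, 0.0399) and RBM8A, the partner of MAGOH (0.20 ± 0.08, 0.0467), rose and CASC3, a core subunit, fell (-0.19 ± 0.07, 0.0359), with calls held in 2 of 8 fits that left out 1 library for ACIN1 and RBM8A and 5 of 8 for SAP18 and CASC3. DESeq2 called 1 higher and 0 lower in HEL. The difference between lines was called for MAGOH (-0.55 ± 0.12, edgeR adjusted p = 0.000962), MAGOHB (-0.59 ± 0.14, 0.00193) and RBM8A (-0.45 ± 0.12, 0.00781).

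Among 12 PIKK kinases and their assembly factors, 4 were higher and 1 lower in HEL, and 3 were higher and 4 lower in MOLM-13, where 34.8% and 32.4% of all tested genes were called in either direction. DESeq2 called 3 higher and 1 lower in HEL and 1 higher and 1 lower in MOLM-13. MTOR, the growth-control kinase and relative of SMG1, rose in both lines, from 174 to 221 CPM in HEL (0.35 ± 0.07, edgeR adjusted p = 7.1e-05) and from 74.6 to 93 CPM in MOLM-13 (0.32 ± 0.08, 0.00243). ATM, the DNA damage kinase, fell in both, from 71 to 56.9 CPM (-0.32 ± 0.09, edgeR adjusted p = 0.00297) and from 112 to 95.2 CPM (-0.24 ± 0.09, 0.0257). The assembly factor RPAP3 rose in HEL (0.37 ± 0.08, edgeR adjusted p = 0.000194) and in MOLM-13 (0.28 ± 0.10, 0.0344), where the call was lost without HEL control replicate 1 or 2 (0.28, 0.0571), MOLM-13 control replicate 2 (0.11, 0.463) or DDX6 shRNA replicate 2 (0.15, 0.471). RUVBL2 rose in HEL (0.23 ± 0.07, edgeR adjusted p = 0.00544), PIH1D1 fell in MOLM-13 (-0.26 ± 0.08, 0.0102) and ATR rose there (0.31 ± 0.11, 0.0298). The ATM call was lost without HEL control replicate 1 (edgeR adjusted p = 0.0756) and, in MOLM-13, without control replicate 1 (0.416) or DDX6 shRNA replicate 1 (0.405). Calls of RUVBL2, PIH1D1 and ATR held in 5, 6 and 3 of 8 such fits. In MOLM-13 the control and knockdown libraries overlapped for ATM and for RPAP3.

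Among 6 genes of decapping and 5′ to 3′ decay, 2 were higher and 1 lower in HEL, and 0 higher and 2 lower in MOLM-13, against 20.7% higher and 14.1% lower, and 18.1% and 14.3%, of all tested genes. DCP2, the decapping enzyme, fell in both, from 110 to 91.9 CPM (-0.26 ± 0.08, edgeR adjusted p = 0.00715) and from 119 to 103 CPM (-0.20 ± 0.08, 0.0496). DCP1A, its activator, fell in MOLM-13 from 45.8 to 34.8 CPM (-0.39 ± 0.10, edgeR adjusted p = 0.00232), and the enhancers of decapping EDC4 (0.26 ± 0.09, 0.0181) and EDC3 (0.23 ± 0.08, 0.0223) rose in HEL. At an unadjusted p under 0.05, 0 were higher in MOLM-13 and 2 lower. DESeq2 called 0 higher and 1 lower there, and 0 higher and 1 lower in HEL. The DCP2 call in MOLM-13 held in 2 of 15 alternatives, and in 1 of the 8 fits among them that left out 1 library. In such fits the DCP2 call in HEL held in 6 of 8, those of EDC4 and EDC3 in 4 and 3 of 8 and that of DCP1A in 7 of 8. Of 4 genes of other UPF1-dependent decay, STAU2 rose in MOLM-13 (0.24 ± 0.09, edgeR adjusted p = 0.0328), 0 genes were called in HEL, also at an unadjusted p under 0.05 and by DESeq2, and STAU2 held in 4 of 8 such fits and was not called by DESeq2 (adjusted p = 0.0685).

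**Figure D4:**
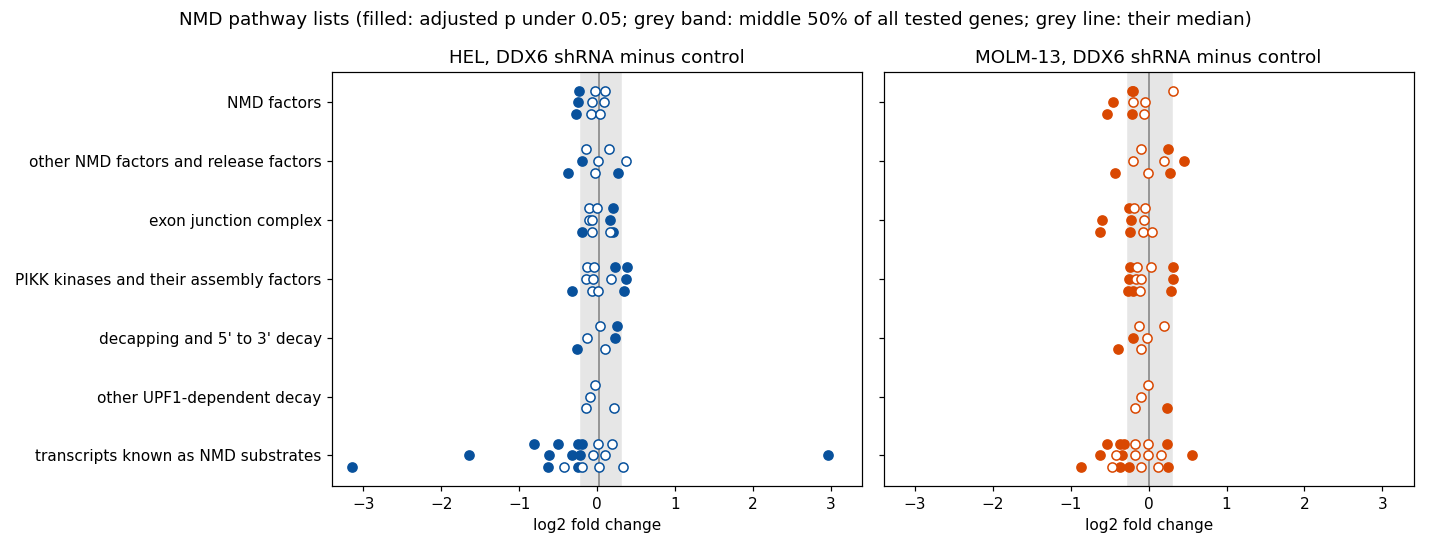
Log2 fold change after DDX6 knockdown of every tested gene in the NMD factor list and the related lists, in HEL (left) and MOLM-13 (right). Each point is a gene, filled where the edgeR adjusted p is under 0.05, and the grey band holds the middle part of all tested genes. Most filled points among the NMD substrates lie left of 0, and CDKN1A in HEL is the point near 2.96.

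The transcripts that NMD is known to act on were counted as well. Of 20, 1 was higher and 11 lower in HEL, against 20.7% higher and 14.1% lower over all tested genes, and 3 were higher and 8 lower in MOLM-13, against 18.1% and 14.3%. DESeq2 called 1 higher and 8 lower in HEL and 0 higher and 7 lower in MOLM-13. Their median log2 fold change was -0.23 in HEL and -0.22 in MOLM-13. The 3 that were higher in MOLM-13 were UPP1 (0.55 ± 0.21, edgeR adjusted p = 0.0342), TBL2 (0.25 ± 0.10, 0.0358) and NAT9 (0.24 ± 0.09, 0.0395). DESeq2 called none of these 3, and none passed the edgeR test in HEL. GAS5, a small nucleolar RNA host, fell from 519 to 367 CPM in HEL (-0.50 ± 0.06, edgeR adjusted p = 2.37e-09) and from 838 to 702 CPM in MOLM-13 (-0.26 ± 0.06, 0.000453). ATF4, a stress transcription factor, fell from 449 to 291 CPM in HEL (-0.63 ± 0.06, edgeR adjusted p = 1.23e-11) and from 820 to 638 CPM in MOLM-13 (-0.36 ± 0.06, 2.86e-06). SNHG1 and ZFAS1, also small nucleolar RNA hosts, fell in MOLM-13 from 228 to 148 CPM (-0.62 ± 0.07, edgeR adjusted p = 8.51e-10) and from 179 to 139 CPM (-0.36 ± 0.08, 0.000272). Both also fell in HEL, SNHG1 by 0.25 (edgeR adjusted p = 0.00241, lost without control replicate 1, at -0.21 and 0.0817, or DDX6 shRNA replicate 2, at -0.22 and 0.0615) and ZFAS1 by 0.25 (0.0255, lost without control replicate 1, at -0.10 and 0.555, or DDX6 shRNA replicate 2, at -0.19 and 0.222). CARS1, a tRNA synthetase and a target of ATF4, fell in HEL from 88.8 to 50.7 CPM (-0.81 ± 0.08, edgeR adjusted p = 1.91e-11) and stood at 124 and 139 CPM in MOLM-13 (0.16 ± 0.07, 0.0946). CDKN1A, a cell-cycle inhibitor, rose in HEL from 5 to 39.1 CPM (2.96 ± 0.13, edgeR adjusted p = 6.28e-23) and stood at 329 and 357 CPM in MOLM-13 (0.12 ± 0.07, 0.185). Several of these RNAs, among them ATF4, CARS1 and CDKN1A, are known to be set by stress and p53 signalling as well as by NMD, and steady-state counts do not measure the rate of decay. The calls of GAS5 and ATF4 in both lines, SNHG1 and ZFAS1 in MOLM-13, and CARS1 and CDKN1A in HEL held in all 8 fits that left out 1 library.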

How the data were processed

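RNA was measured by sequencing in 8 libraries of HEL and MOLM-13 cells, 2 per group. Per the labels' protocols, the miRNeasy Micro Kit gave the RNA and the NEBNext Ultra II kit the libraries. The authors deposited 1 table per line of raw, whole-number counts. STAR, SAMtools 1.12, DESeq2 and GRCh38 are named, per the submitters' processing notes. Their roles, the counter, the annotation and the strand setting: not given in the sources used here.

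Columns were assigned by line, shRNA and replicate number, and 0 were left unused. Of 61544 entries, 58330 matched GENCODE release 29, and 1348 share a symbol with another. All 8 libraries were fitted together with edgeR 4.0.16 (R 4.3.3): filterByExpr with a minimum count of 10, TMM scaling, quasi-likelihood test with 4 group means and 4 residual degrees of freedom, Benjamini-Hochberg adjustment over 16499 genes, calls at 0.05. DESeq2 1.42.0 was an alternative. Errors are standard errors, computed as the absolute log2 fold change over the square root of edgeR's F statistic. Intervals are 95%, from these errors and a t distribution. The code was tested on simulated data. Alternatives were other scalings, no filter, each line alone, a replicate block, leaving out each library and pooling SMG1 pseudogenes, and, chosen after seeing the data, removal of a GC trend. Replicates differed beyond sampling noise, most in MOLM-13 control, and none were identical. Chi-square per degree of freedom was 1.41 in HEL control, 1.54 in HEL DDX6 shRNA, 3.37 in MOLM-13 control and 1.69 in MOLM-13 DDX6 shRNA. The 9 genes and the lists were chosen with earlier results of these data known. Named genes are the 9, DDX6, up to 4 called genes per list and line with the smallest adjusted p, and the 3 nearest patterns of genes called in both lines. The 3 NMD substrates called higher in MOLM-13 are named as well. 1 marker gene of another cell type is not reported here.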

Additional observations from a re-analysis of the deposited data

Results flagged for a closer look

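UPF3B changed differently in the lines: the MOLM-13 change was lower than that in HEL, by a difference of -0.40 on the log2 scale, by the interaction test (edgeR adjusted p = 0.0151, 2 libraries per group). SMG5 also differed between the lines, by -0.31 (edgeR adjusted p = 0.0311). These are 2 of the 9 NMD factors tested, and 15.1% of all tested genes were called for the same difference. The UPF3B difference was called in 9 of 15 alternatives and the SMG5 difference in 6 of 15, and DESeq2 called neither. Here too the line and the hairpin cannot be told apart.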

How the results depend on the processing

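The DDX6 knockdown and the losses of UPF3B and SMG9 in MOLM-13 were called in all 16 alternatives run. The number of NMD factors lower in MOLM-13 was 2 with DESeq2 and 2 with each line fitted alone, in place of 5. For the difference between lines it was 1 with upper-quartile scaling and 0 with DESeq2, in place of 2, and 1 with the replicate block, where SMG5 had an edgeR adjusted p of 0.0565. Replicate numbers were not shown to pair the libraries (correlations of 0.042 in HEL and -0.025 in MOLM-13, 2 pairs each), and the block changed no other count of NMD factors. Between control libraries, 4 were higher with upper-quartile scaling in place of 7, and 2 were lower with the GC trend removed in place of 1, UPF2 (-0.27) and UPF3B (-0.13) being reversed. DESeq2 called 2178 genes higher and 1383 lower in HEL (3417 and 2322 by edgeR), 1405 lower in MOLM-13 (2358), and 803 higher and 691 lower for the difference (1242 and 1253). Leaving out 1 library gave 1 to 3 NMD factors lower in HEL, 2 to 5 in MOLM-13 and 0 to 2 for the difference, and 6 to 8 higher and 1 to 1 lower between controls, with 0 to 0 higher otherwise. Over all genes the same fits gave 2250 to 3500 higher and 1463 to 3151 lower in HEL, 2205 to 3036 and 1454 to 2285 in MOLM-13, 820 to 1877 and 667 to 1338 for the difference, and 6377 to 6902 and 6117 to 6635 between controls. The causes were not tested. SMG6, at 110 to 142 counts per MOLM-13 library, has the widest interval of the 9.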
